A study of Mus musculus with 20 samples.

Results

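The genes described here are Ltc4s and 8 other genes of leukotriene synthesis, breakdown and sensing (Alox5, Alox5ap, Lta4h, Cysltr1, Ggt5, Ggt1, Mgst2 and Mgst3) in mouse liver after benzo(a)pyrene (BaP). They were chosen by gene symbol, and the group was built around Ltc4s because that gene was the firmest riser of the array, the one with the smallest p, between the highest dose and the controls. Of 41174 probes on the array, 13 belonged to these 9 genes. The liver signal passed the limit of the negative control spots for 11 of the 13 probes, and each of the 9 genes kept at least 1 probe. The values of the highest dose are therefore given as a description with no test, whereas the lower doses were tested.

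RNA came from the livers of 20 male Muta™Mouse animals aged 25 weeks (transgenic mouse strain 40.6), which all carry a lacZ transgene used as a mutation reporter. Groups of 5 received BaP in olive oil by daily gavage at 25, 50 or 75 mg/kg/day for 28 days. The 5 controls were dosed with olive oil as the vehicle (0 mg/kg/day), and tissue was taken 3 days after the last dose. Each animal was measured on 1 two-color array, with liver RNA in Cyanine 5 and a universal mouse reference RNA, made from 11 mouse cell lines, in Cyanine 3. One label calls the tissue lungs and another liver, and the 9 hepatocyte markers measured, albumin among them, lay on average between 4.71 and 5.92 above the reference on the log2 scale on every array.

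Leukotrienes are lipid mediators made from arachidonic acid, mostly by white blood cells. The 5-lipoxygenase Alox5, helped by its activating protein Alox5ap, forms the unstable leukotriene A4. Lta4h hydrolyses it to leukotriene B4, which draws in neutrophils, whereas Ltc4s, the leukotriene C4 synthase, joins it to glutathione and so opens the cysteinyl branch. Ggt1 and Ggt5 then trim the glutathione part, Cysltr1 senses the product, and Mgst2 and Mgst3 are microsomal glutathione transferases of the same superfamily as Ltc4s. Hepatocytes are known for clearing cysteinyl leukotrienes from blood into bile.

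The stretch before the Ltc4s start is shown because Ltc4s differed most between the dose groups and because the aryl hydrocarbon receptor, which BaP binds, acts through a short DNA element. It lies at chr11:50238533-50238782 on the minus strand (RefSeq, GRCm38.p6) and ends at the base before the start of the gene, which spans chr11:50236461-50238532. Capitals mark the matches to the letters searched.
Ltc4s upstream: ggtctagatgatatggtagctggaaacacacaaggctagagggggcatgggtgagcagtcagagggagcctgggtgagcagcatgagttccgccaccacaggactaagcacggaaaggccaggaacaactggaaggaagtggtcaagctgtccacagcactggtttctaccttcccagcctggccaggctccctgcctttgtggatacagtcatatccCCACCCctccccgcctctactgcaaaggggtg
Both strands were searched for 5 short motifs. The core of the xenobiotic response element, through which the aryl hydrocarbon receptor acts, was written GCGTG, and 28.3% of 32536 distinct upstream windows of 250 bases held it. The core of the antioxidant response element was written TGACNNNGC (10.2% of windows). The CACCC box was written CCACCC (28.1% of windows). The GC box was written GGGCGG (33.0% of windows), and the TATA box, for which the letters searched were TATAAA, was held by 12.3% of windows. In the Ltc4s window the single match was the CACCC box, 32 to 27 bases before the start, and it overlapped no other match. Windows were matched for 6 of the 9 genes (9 windows, 4 of them of Ggt1), and the xenobiotic response element core was found in that of Mgst3. A match is a description of letters, not of a bound site, and a missing match says only that these letters are not in the window.

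Over all present probes (27202), limma with Benjamini-Hochberg adjustment called 0 probes at 25 mg/kg/day against control, 0 at 50 mg/kg/day and 0 between 50 and 25 mg/kg/day, where called means that the adjusted p is below 0.05 and the fold change above 1.5. At an unadjusted p under 0.05 there were 2125, 1823 and 2260 probes. At 75 mg/kg/day, 36 probes were called higher and 1 lower than in controls. No spot was saturated. The share of spots whose liver signal stood well above background was 51.9% to 67.5% per array, highest in control replicate 4. The arrays lay on 6 slides with 4 positions each. All 25 mg/kg/day arrays lay at position 2 and all 75 mg/kg/day arrays at position 4, and 4 of 5 arrays at position 1 for the controls and at position 3 for 50 mg/kg/day, so dose and position cannot be told apart for most arrays.

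The mean level of Ltc4s mRNA was higher in each group than in the one at the next lower dose. Its log2 ratio of liver over reference, from a single probe, was 0.20, 0.06, -0.13, -0.07 and 0.11 in control replicates 1 to 5. At 25 mg/kg/day it was 0.43, 0.54, 0.13, 0.09 and 0.74 in replicates 6 to 10. At 50 mg/kg/day it was 1.57, 1.38, 0.44, 1.28 and 1.26 in replicates 11 to 15. All 5 arrays at 50 mg/kg/day lay above all 5 controls, and 4 of them lay above every array of the 25 mg/kg/day group. At 75 mg/kg/day, the group that chose the gene, it was 1.86, 3.15, 2.55, 2.04 and 1.93 in replicates 16 to 20, and every one of these lay above every array of the other groups. The means were 0.04 ± 0.13, 0.39 ± 0.27, 1.19 ± 0.44 and 2.31 ± 0.54 (SD, n = 5) from control to 75 mg/kg/day. The neighbouring groups control and 25 mg/kg/day overlapped, as did 25 and 50 mg/kg/day through replicate 13 alone, and 50 and 75 mg/kg/day did not overlap. In whole tissue, more cells of a type and more RNA per cell cannot be told apart.

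**Figure D1:**
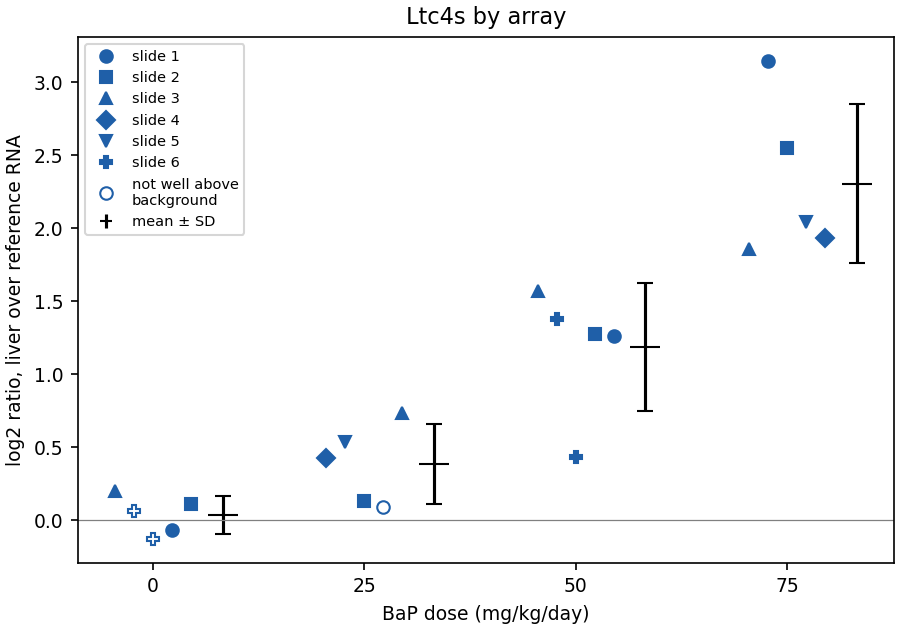
Log2 ratio of liver over reference RNA (vertical axis) for Ltc4s on each of the 20 arrays by BaP dose in mg/kg/day (horizontal axis). Marker shapes give the slide, open markers are arrays where the probe was not well above background, and bars are the mean and SD of 5 arrays; the 5 arrays at 75 mg/kg/day sit between 1.86 and 3.15, above all others.

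At 50 mg/kg/day Ltc4s was 1.15 (SE 0.22) above the controls on the log2 scale, 2.22-fold, with an interval (95%) of 0.69 to 1.61. The limma p was 4.33e-05, rank 5 of 27202 probes, and the adjusted p 0.219, so the change did not pass the threshold across the array. The 5 control arrays of this comparison also entered the choice of Ltc4s, so its test is not independent of that choice, and the same holds for 25 mg/kg/day. Taken as a single gene, the exact two-sided permutation test over 252 relabellings, which took no account of slide, gave p = 0.00794, the smallest it allows with 5 against 5 arrays, and 0.0238 after adjustment over the 3 comparisons tested. Of all probes, 0% were called in this comparison, and 0.529% lay without overlap above the controls, as Ltc4s did.

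Between 25 and 50 mg/kg/day, the comparison that shares no array with the one that chose the gene, Ltc4s was 0.80 (SE 0.22) higher, 1.74-fold, with an interval of 0.34 to 1.26. The exact permutation test gave p = 0.0238 and 0.0357 after adjustment over the 3 comparisons. The adjusted limma p was 0.463 (unadjusted 0.00172), and 0% of all probes were called. The SE, the interval and the limma p rest on a spread estimated over all 4 groups. That spread also entered the choice of Ltc4s, so they are not fully independent of it. Some 1.06% of probes lay without overlap higher at 50 than at 25 mg/kg/day, and Ltc4s was not one of them.

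At 25 mg/kg/day the difference from the controls was 0.35 (SE 0.22), 1.27-fold, with an interval of -0.11 to 0.81. The limma p was 0.131 and its adjusted p 0.703, whereas the exact permutation test gave p = 0.0476, also after adjustment over the 3 comparisons. That test moved arrays freely between slides, although control and 25 mg/kg/day met on only 3 slides, and with slide as a random block the adjusted limma p was 0.628. Here 3 of 5 arrays lay above all controls. In this comparison 0% of all probes were called and 0.562% lay higher without overlap.

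At 75 mg/kg/day, as a description, Ltc4s was 2.27 (SE 0.22) above the controls, 4.82-fold, 1.92 above 25 mg/kg/day and 1.12 above 50 mg/kg/day. Having been chosen in this comparison it is by construction among the 37 probes called (0.136% of all), and 0.941% of all probes lay without overlap above the controls; nothing is read from either. The next firmest riser, which just missed being chosen, was Mmrn2 (multimerin 2, an endothelial matrix protein) with 1.36 (SE 0.14).

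The Ltc4s probe was dim. Its liver signal before background correction was 114.5 to 139.5 units in controls, 102 to 164 at 25, 133.5 to 217.5 at 50 and 223.5 to 653.5 at 75 mg/kg/day. It was well above background in the liver channel on 3, 4, 5 and 5 of 5 arrays in this order. The offset of 50 that was added to each background-corrected signal pulls such low ratios toward 0. With an offset of 0 and all else the same, a setting chosen after the data were seen, the differences were 0.84 at 25, 2.14 at 50 and 1.295 between 25 and 50 mg/kg/day, and the one at 50 mg/kg/day was called, with an adjusted limma p of 0.0313. With the processed signals of the scanner software, which differ in background and dye correction too, they were 1.02, 2.56 and 1.54 in this order, and the one at 50 mg/kg/day was called (adjusted limma p 0.0253). Over the 12 other settings its adjusted p ran from 0.0253 to 0.918.

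Both channels were also read apart. After background correction and relative to the median spot of its array, the log2 liver signal of Ltc4s had means of -0.26, -0.11, 0.58 and 1.58 from control to 75 mg/kg/day. The reference signal of the same spots had means of -0.46, -0.64, -0.56 and -0.46. At 25 mg/kg/day the liver mean was thus only slightly above that of the controls and the reference mean below it, whereas at 50 mg/kg/day the liver mean was higher. In this channel 50 mg/kg/day and controls overlapped, since replicate 13, with -0.04, lay below the highest control, 0.10. The lowest liver signal at 75 mg/kg/day lay above that control. The reference signal spread more in controls (SD 0.38) than at 25, 50 or 75 mg/kg/day (SD 0.10, 0.10 and 0.09).

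**Figure D2:**
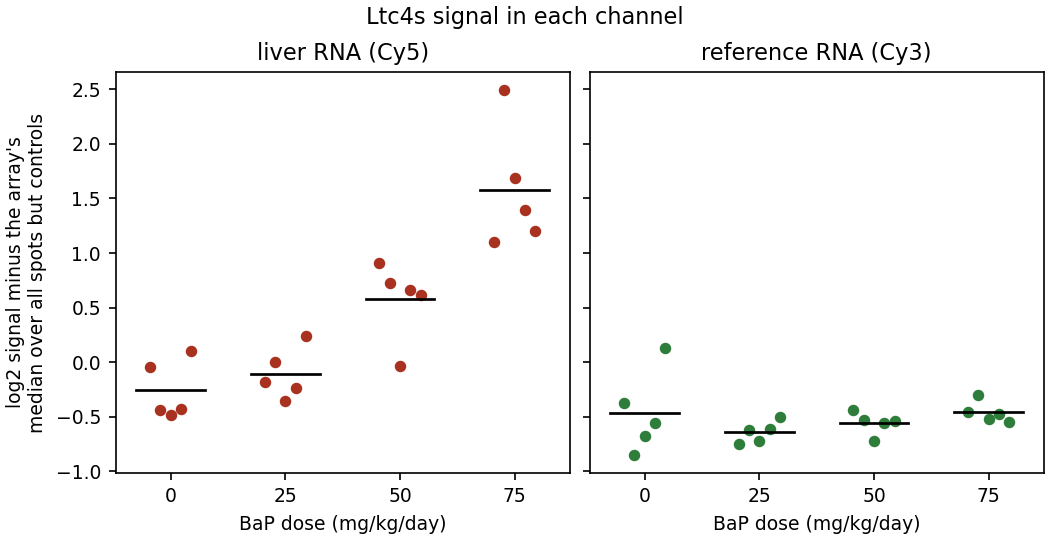
Log2 signal of the Ltc4s probe (vertical axis, relative to the median spot of each array) in the liver channel (left) and the reference channel (right) by BaP dose in mg/kg/day; points are arrays and lines are group means. The liver means go from -0.26 to 1.58, and the reference means stay between -0.64 and -0.46.

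Within slides the direction was the same on each slide that held both groups. The 25 mg/kg/day array was above the control on 3 of 3 slides, by 0.02 to 0.54. At 50 mg/kg/day the level was above control on 4 of 4 slides, by 0.94 to 1.37. The 0.94 is a difference of means on slide 6, which held 2 arrays of each group. These were 1.38 and 0.44 at 50 mg/kg/day against 0.06 and -0.13 in controls. Between 25 and 50 mg/kg/day the difference was 0.83 to 1.17 on 3 of 3 slides. As a description, 75 mg/kg/day lay 1.66 to 3.21 above control on 3 slides and 1.12 to 3.06 above 25 mg/kg/day on 5 slides. The 50 mg/kg/day array at position 4, which held all the 75 mg/kg/day arrays, was replicate 13, and its log2 ratio of 0.44 was the lowest of its group. The control at position 2, which held all the 25 mg/kg/day arrays, had 0.06.

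None of the 8 other genes was called at any dose. Their 10 present probes differed from the controls by -0.21 to 0.24 at 25 mg/kg/day, by -0.19 to 0.39 at 50 mg/kg/day and by -0.23 to 0.43 at 75 mg/kg/day on the log2 scale. Adjusted limma p values of these probes ran from 0.671 to 0.997 at 25 mg/kg/day, from 0.745 to 0.997 at 50 mg/kg/day and from 0.890 to 0.999 between 25 and 50 mg/kg/day. In the last comparison all of their intervals lay within 0.54 of 0, in the 25 mg/kg/day comparison within 0.62 and in the 50 mg/kg/day comparison within 0.77. Changes inside these intervals are not excluded with 5 arrays per group. The intervals are not limits of detection, as larger changes could also go without a call. Ltc4s at 50 mg/kg/day, with an interval of 0.69 to 1.61, was not called. The offset of 50 pulls the ratios of dim probes toward 0 here too, so for them the intervals bound a compressed ratio. The second probe of Ggt5 was well above background in the liver on 0 of 20 arrays and that of Alox5 on 8. Ggt1 was so on 5 arrays and Cysltr1 on 6.

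**Figure D3:**
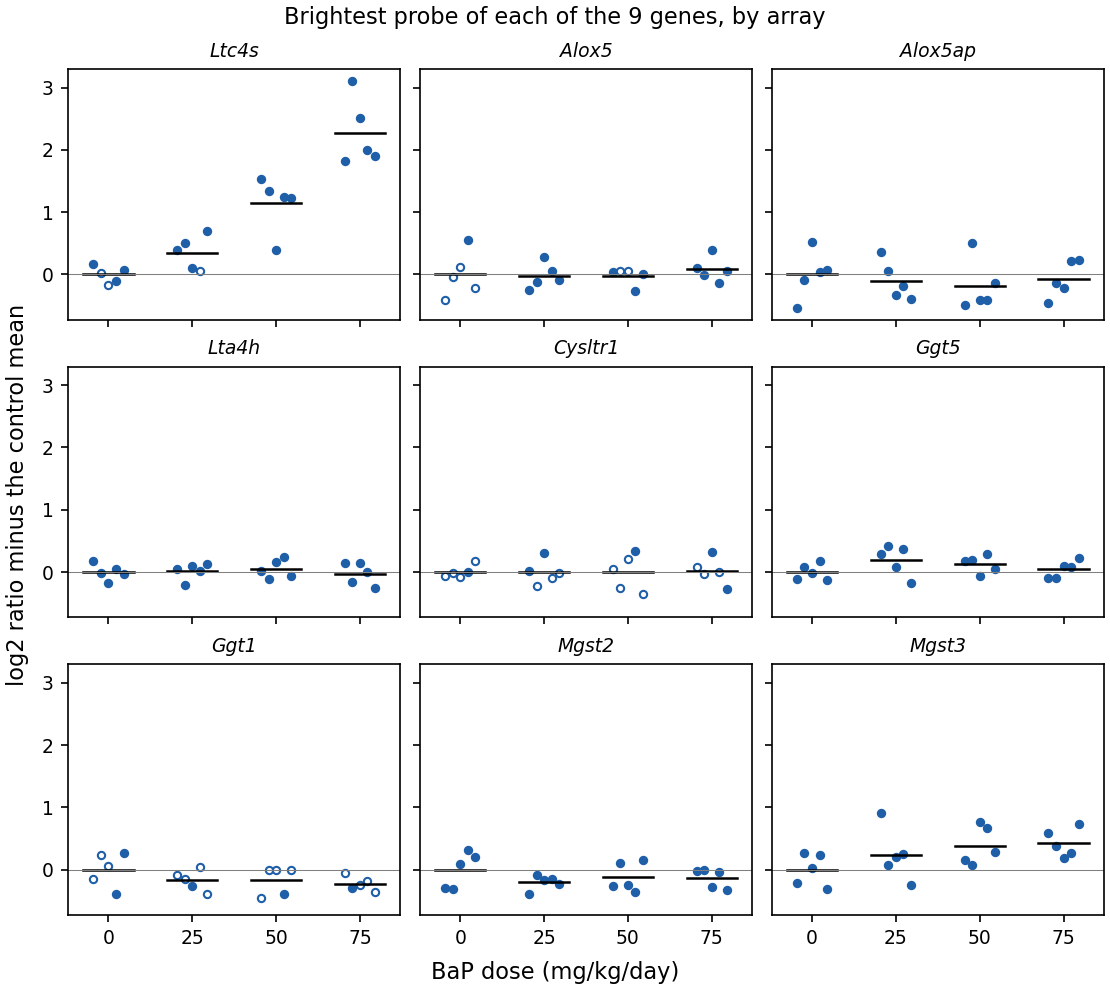
Log2 ratio minus the control mean (vertical axis) for the brightest probe of each of the 9 genes on the 20 arrays, by BaP dose in mg/kg/day (horizontal axis). Open points were not well above background in the liver and lines are group means. Ltc4s climbs to a mean of 2.27 at 75 mg/kg/day. The group means of the other genes stay within -0.23 and 0.43, with single arrays beyond that range.

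The enzyme that starts the pathway was present at a low signal. Alox5 (chr6:116410071-116461178) had 3 probes. The brightest was well above background in the liver on 1, 5, 3 and 5 of 5 arrays from control to 75 mg/kg/day. Its log2 ratio was -1.03, -0.67, -0.51, -0.08 and -0.84 in the controls and -0.58, -0.58, -0.57, -0.89 and -0.62 at 50 mg/kg/day. The 50 mg/kg/day arrays all lay inside the range of the controls, and the difference was -0.02 (SE 0.15, limma, adjusted p = 0.987). At 25 mg/kg/day it was -0.02 and at 75 mg/kg/day 0.08. The second probe gave 0.06, -0.01 and 0.12, and the third did not pass the limit for presence and was well above background in the liver on 0 arrays.

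Alox5ap (chr5:149265004-149288153), the membrane protein that hands arachidonic acid to Alox5, was well above background on all 20 arrays. Its log2 ratio was -2.51, -2.05, -1.45, -1.92 and -1.90 in the controls. At 50 mg/kg/day it was -2.45, -1.46, -2.37, -2.38 and -2.11. These ranges overlapped, and the difference of -0.19 had an SE of 0.21 (limma, adjusted p = 0.893). The differences at 25 and 75 mg/kg/day were -0.10 and -0.07. On every array the liver gave a lower signal for this transcript than the reference RNA.

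Lta4h (chr10:93453396-93484896), which takes leukotriene A4 into the B4 branch, varied little. It was well above background on all arrays, with SDs of 0.13 to 0.17 within groups. Its log2 ratio was -1.15, -1.34, -1.51, -1.28 and -1.36 in the controls and -1.32, -1.43, -1.17, -1.08 and -1.40 at 50 mg/kg/day. The difference at 50 mg/kg/day was 0.05 (SE 0.10) with an interval of -0.16 to 0.26, and those at 25 and 75 mg/kg/day were 0.02 and -0.03.

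Cysltr1 (chrX:106576509-106603679), the receptor for cysteinyl leukotrienes, gave little signal in the liver. Its brighter probe was well above background on 1, 2, 1 and 2 of 5 arrays from control to 75 mg/kg/day. The log2 ratio ran from -0.29 to -0.03 in the controls (median -0.23) and from -0.56 to 0.13 at 50 mg/kg/day (median -0.16), so the controls lay inside the range of the exposed arrays. The differences were 0.00, -0.01 and 0.02 at 25, 50 and 75 mg/kg/day (SE 0.13). Its second probe did not pass the limit for presence and stood well above background on 4 of 20 arrays, none of them a control.

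The transpeptidases that cleave leukotriene C4 lie next to each other on chromosome 10, Ggt1 at chr10:75561076-75586193 and Ggt5 at chr10:75589327-75617200. Ggt1 was well above background in the liver on 2, 1, 1 and 1 of 5 arrays, so on most arrays its signal was near background. Its log2 ratio ran from -1.07 to -0.41 in the controls and from -1.13 to -0.68 at 50 mg/kg/day, ranges that overlapped. The differences were -0.17, -0.17 and -0.23 at 25, 50 and 75 mg/kg/day (SE 0.13), and the lowest adjusted limma p of the tested comparisons was 0.752.

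The brighter probe of Ggt5 was well above background on all arrays. Its log2 ratio was 0.25, 0.44, 0.35, 0.53 and 0.24 in the controls and 0.65, 0.78, 0.44, 0.73 and 0.19 at 25 mg/kg/day. Here 3 of 5 arrays lay above all controls and 1 below them. The difference of 0.20 (SE 0.11) at 25 mg/kg/day had an adjusted limma p of 0.671, and the differences at 50 and 75 mg/kg/day were 0.13 and 0.04. Its second probe was well above background in the liver on 0 arrays.

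The relatives of Ltc4s were not called at any dose. Mgst2 (chr3:51636912-51682675) was well above background on all arrays. Its log2 ratio was -2.76, -2.78, -2.38, -2.14 and -2.26 in the controls, -2.85, -2.55, -2.63, -2.62 and -2.70 at 25 mg/kg/day and -2.73, -2.35, -2.71, -2.83 and -2.32 at 50 mg/kg/day. All of these lay far below the reference, and the groups overlapped. The differences were -0.21, -0.12 and -0.13 at 25, 50 and 75 mg/kg/day (SE 0.13), with adjusted limma p of 0.711 and 0.890 for the first and second.

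Mgst3 (chr1:167371966-167393841) had the largest differences after Ltc4s. Its log2 ratio was -0.43, 0.03, -0.20, 0.01 and -0.53 in the controls. At 25 mg/kg/day it was 0.69, -0.16, -0.02, 0.02 and -0.47. At 50 mg/kg/day it was -0.07, -0.16, 0.54, 0.44 and 0.05. In the last group 3 of 5 arrays lay above all controls. The difference at 50 mg/kg/day was 0.39 (SE 0.19) with an interval from 0.00 to 0.77, an unadjusted limma p of 0.0502 and an adjusted p of 0.745. At 25 mg/kg/day it was 0.24, and at 75 mg/kg/day, as a description, 0.43. Within dose groups its deviations ran against those of Ltc4s (r = -0.48 over 20 arrays).

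**Figure D4:**
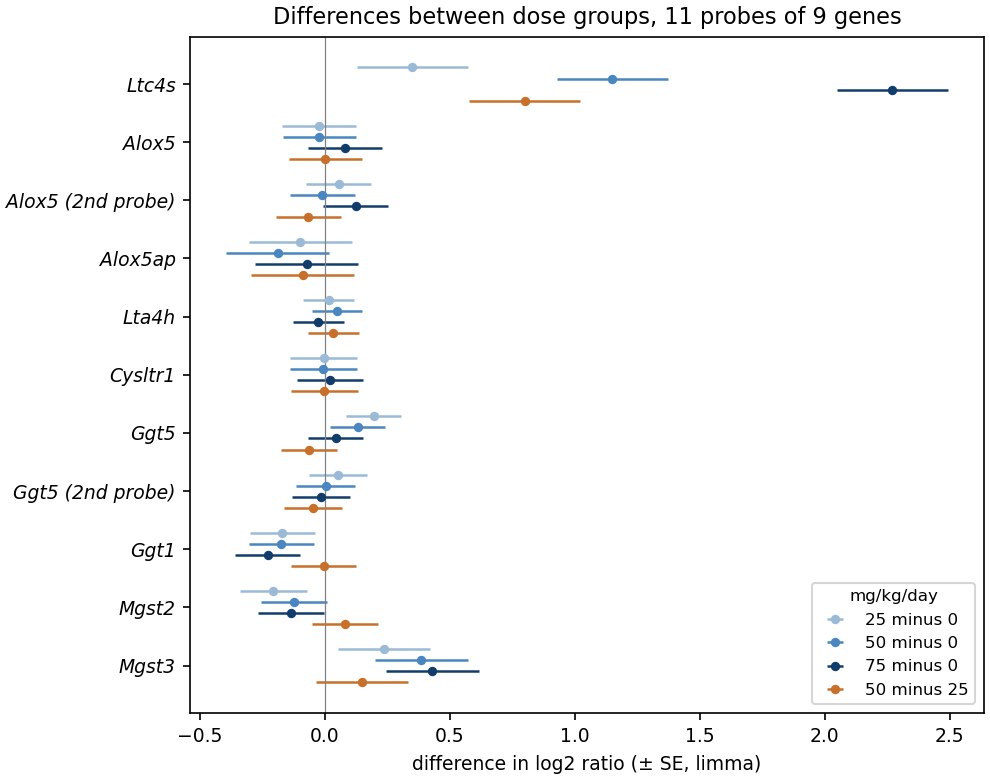
Difference in log2 ratio between dose groups (horizontal axis, points with SE bars from limma) for the 11 present probes of the 9 genes (vertical axis), with 1 color per comparison in mg/kg/day. Ltc4s stands at 0.35, 1.15 and 2.27 against control and 0.80 between 25 and 50 mg/kg/day, and the other probes lie between -0.23 and 0.43.

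The wider eicosanoid pathway was read from 6 other lists, for which 38 genes had a present probe. None of the 38 was called at 25, 50 or 75 mg/kg/day or between 25 and 50 mg/kg/day. The median difference over all present probes was 0.00 at 25, 50 and 75 mg/kg/day against control. At 75 mg/kg/day the list medians were -0.07 for the release of arachidonic acid (4 genes), 0.06 for a list of other lipoxygenases and related enzymes (3 genes: Alox12, Alox12b and the soluble epoxide hydrolase Ephx2), -0.02 for leukotriene receptors (3), 0.21 for leukotriene export and breakdown (11), 0.04 for the prostaglandin branch (12) and 0.08 for glutathione supply and its transferases (5). At 50 mg/kg/day these medians were 0.03, 0.10, 0.01, 0.16, 0.02 and 0.16 in the same order.

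The gene farthest from the controls at 75 mg/kg/day in each list is named here. Ptgds, the lipocalin-type synthase of prostaglandin D2, had 0.16, 0.50 and 0.92 (SE 0.19) at 25, 50 and 75 mg/kg/day, with an adjusted limma p of 0.694 at 50 mg/kg/day. It was not called at any dose, but was at 75 mg/kg/day with no background subtraction (0.93). Mgst1, the microsomal glutathione transferase abundant in liver, had 0.51, 0.36 and 0.58 (SE 0.21). Abcc4, an exporter of leukotrienes and other organic anions, had 0.04, 0.18 and 0.42 (SE 0.13). At 75 mg/kg/day it lay above the controls without overlap, as 0.941% of all probes did. Ltb4r1, the high-affinity receptor of leukotriene B4, had 0.19, -0.05 and 0.38 (SE 0.12). Pla2g5, a secreted phospholipase, had -0.22, -0.15 and -0.20 (SE 0.11), and Alox12, the platelet-type lipoxygenase, had -0.01, 0.10 and 0.16 (SE 0.13). None of these passed the test at 25 or 50 mg/kg/day.

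**Figure D5:**
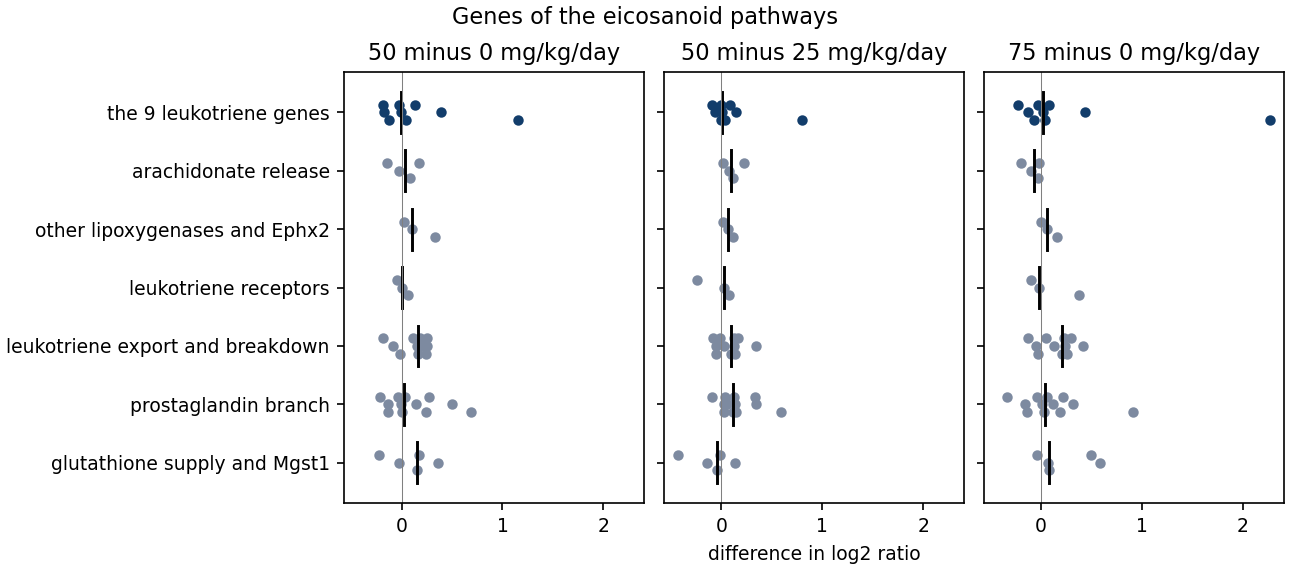
Difference in log2 ratio (horizontal axis) of each present gene of the 9 leukotriene genes and 6 related lists (rows) at 50 against 0, 50 against 25 and 75 against 0 mg/kg/day; points are genes and bars are list medians. The point far to the right in the first row is Ltc4s (1.15, 0.80 and 2.27), and the highest of the related genes is at 0.92.

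Markers of the cells that make cysteinyl leukotrienes elsewhere were mostly not measurable. Of 10 mast cell markers, 4 were present, and Cpa3, Mcpt4, Tpsb2, Ms4a2 and Mrgprb2 were not. The mean log2 ratio of the 4 (Cma1, Fcer1a, Hdc and Kit) ran from 0.58 to 0.81 in controls, from 0.58 to 1.13 at 50 and from 0.72 to 1.54 at 75 mg/kg/day, and 0 of them were called. Of 10 markers of eosinophils and basophils, 3 were present (Ccr3, Ear1 and Prss34), with 0 called, and Prg2, Epx, Siglecf, Il5ra and Mcpt8 were not present. Their mean ran from 0.33 to 0.53 in controls and from 0.14 to 0.39 at 75 mg/kg/day.

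A single gene was called at 75 mg/kg/day in each list of resident sinusoidal cells, and neither gene passed the test at 50 mg/kg/day. Marco, a scavenger receptor of macrophages, was 1.71 (SE 0.30) above the controls at 50 mg/kg/day (limma, adjusted p = 0.101) and 1.22 above 25 mg/kg/day (adjusted p = 0.463). With slide as a fixed or a random block it was called at 50 mg/kg/day (limma, adjusted p = 0.0167 and 0.0205). It was called at 75 mg/kg/day with 2.19. The whole list of Kupffer cell markers had 1 of 13 genes called there, with list medians of 0.17, 0.12 and 0.08 at 25, 50 and 75 mg/kg/day. Its mean log2 ratio was 2.36 to 2.79 in controls against 2.55 to 3.05 at 75 mg/kg/day. Lyve1, a hyaluronan receptor of the sinusoidal endothelium, had 1.26 (SE 0.40) at 50 (limma, adjusted p = 0.659) and 2.23 at 75 mg/kg/day, where it was called. That call was lost with an offset of 0, with processed signals, with only the groups compared in the model, and without control replicate 2 or 75 mg/kg/day replicate 17, 18 or 20. In the endothelial list 1 of 14 genes was called at 75 mg/kg/day. At each dose 13 of 14 lay higher, with medians of 0.24, 0.28 and 0.30 at 25, 50 and 75 mg/kg/day. The mean of this list ran from 2.54 to 3.26 in controls and from 3.11 to 3.72 at 75 mg/kg/day.

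Hepatocyte markers also lay higher, 9 of 9 at each dose, with medians of 0.30, 0.23 and 0.42 at 25, 50 and 75 mg/kg/day and 0 called. Their mean log2 ratio, however, ran from 4.71 to 5.92 in controls, and every exposed array lay inside that range. It ran from 5.32 to 5.88 at 25, from 5.17 to 5.73 at 50 and from 5.43 to 5.74 at 75 mg/kg/day. The remaining lists had 0 genes called at 75 mg/kg/day, with medians of 0.12 for neutrophils, 0.16 for monocytes and dendritic cells, 0.00 for B cells, -0.14 for T cells, 0.19 for stellate cells and fibroblasts and 0.06 for bile duct cells. Single genes stood far from some of these medians. The gene of each list farthest from the controls, picked after the values were seen, is named here. These were S100a9 (1.34) of the neutrophils, Lyz2 (0.80) of the monocytes and dendritic cells and Blnk (-0.19) of the B cells. The others were Cd3g (-0.43) of the T cells, which lay below the controls without overlap, Dcn (0.80) of the stellate cells and fibroblasts and Tff3 (1.41) of the bile duct cells. Of the 6 neutrophil genes, 3 lay higher, 1 of them without overlap, and 3 lower. H2-Ab1, an antigen-presenting class II chain in the monocyte and dendritic cell list, lay above the controls without overlap by 0.57 at 50 and 0.69 at 75 mg/kg/day. It was called at 75 mg/kg/day with no background subtraction, the deposited log2 ratios, a filter for probes well above background and slide as a block. Some runs that left out 1 array called it too. Of all 27202 present probes, 414 lay without overlap on either side of the controls at 75 mg/kg/day, 256 of them above. At 50 mg/kg/day 0.529% lay above. The part that any change in cell makeup had in the difference of Ltc4s was not tested.

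The genes whose log2 ratio was most like that of Ltc4s over the 20 arrays, among 12754 genes, were Endou, Phlda3, Aen, Mmrn2 and Cdkn1a, with Pearson r of 0.94, 0.91, 0.89, 0.89 and 0.88. Spearman rho was 0.85, 0.81, 0.85, 0.88 and 0.78. These are descriptions over arrays that share dose groups and slides, and all 5 were called higher at 75 mg/kg/day, by 1.16, 0.94, 0.80, 1.36 and 1.60. Endou is an endoribonuclease, Phlda3 a membrane-binding inhibitor of Akt, Aen a nuclease of dying cells and Cdkn1a the cell cycle inhibitor p21. Without the arrays farthest from the median of Ltc4s (75 mg/kg/day replicates 17 and 18), r was 0.88, 0.84, 0.82, 0.85 and 0.81.

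With each dose mean removed, r of the same genes was 0.64, 0.65, 0.55, 0.37 and 0.38, and another set ranked highest. These were Mrtfa (0.82), Inca1 (0.77), Bpgm (0.76), Brd8dc (0.70) and Plk2 (0.70). Mrtfa, a cofactor of serum response factor, Inca1, Bpgm, a mutase of red cell glycolysis, and Brd8dc had an r of -0.18, 0.02, 0.39 and 0.21 over the arrays with dose left in, whereas Plk2, a polo-like kinase, had 0.72. Of the other leukotriene genes, Mgst3 had the highest r with Ltc4s (0.27) and Ggt1 the lowest (-0.41).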

How the data were processed

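Liver RNA of 20 mice (5 controls and 5 at each of 3 BaP doses) was measured on 20 two-color Agilent arrays against a universal reference RNA. The spot intensities are median brightness on a linear scale, deposited by the authors as unnormalized scanner output with a processed signal beside them, which the software had background subtracted and dye normalized. The authors also deposited log2 ratios normalized by LOWESS within each array. One sample was left out of the study's model and is not named; all 20 are used here. The series text and the sample labels differ slightly on the lowest dose; 25 mg/kg, from the labels, is used.

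From the median intensities, normexp (offset 50) and loess within each array gave log2 ratios of liver over reference, averaged over the spots of a probe (43379 spots, 41174 probes), with control and outlier spots given no weight. A probe was present where, on 4 or more arrays of 5 in any group, its liver signal lay over 3 SDs above the mean of 153 negative controls, both trimmed by 5% at each end (27202 probes). Symbols came from RefSeq accessions (23374 probes, GRCm38.p6). One limma model over the 4 groups was used (limma 3.58.1, R 4.3.3; statmod 1.5.0, Python 3.11.15, matplotlib 3.10.9), with Benjamini-Hochberg adjustment over all present probes. Where a gene had several probes, the present one of highest mean intensity stands for it. On simulated data with 26919 probes, 89 of 100 probes changed by 1 and 98 of 100 changed by 2 (log2) were called in the comparison of 75 mg/kg/day with control. Both sets were changed at once, with independent normal noise and no shared slide or position effect. More true changes loosen the Benjamini-Hochberg cutoff, and in the data 0 probes were called at 25 or 50 mg/kg/day. The shares found are therefore not the power of those comparisons.

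All probes of the 9 genes are described, with, for each related list, the genes called and the one farthest from control at 75 mg/kg/day, and the 5 genes most like Ltc4s by each of 2 measures. The members and the lists were chosen with earlier results of these data known; some marker genes, such as Marco and Lyve1, were picked by the study on these samples. Precision is limited by having 5 arrays per group. The p-values measure the spread between animals. Alternatives were other background correction, normalization, filters, slide as a block and leaving out each array, and an offset of 0, which was added after the data were seen.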

Additional observations from a re-analysis of the deposited data

Results flagged for a closer look

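Of 44 groups of 5 arrays (11 present probes in 4 dose groups), 3 held an array that stood far from the rest, where chance gives about 1 in 20. For Ltc4s at 50 mg/kg/day, replicate 13 had a log2 ratio of 0.44 and the nearest other array 1.26. For Alox5 at 50 mg/kg/day, replicate 14 had -0.89 and the nearest other -0.62. For the second probe of Ggt5 at 25 mg/kg/day, replicate 10 had -0.41 and the nearest other 0.10, and this probe was well above background in the liver on no array.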

How the results depend on the processing

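Ltc4s kept its direction in the 3 comparisons with controls and between 25 and 50 mg/kg/day under all 12 other settings and all 20 omissions of 1 array. Some of these runs could not change the difference by construction and so are no check of direction. They are quantile scaling of mean intensities, other probe filters, only the groups compared in the model, and omission of an array outside the groups compared. Slide as a block is another for 50 mg/kg/day against control, since both groups lay on the same slides. With the processed signals of the scanner software the log2 difference of Ltc4s was 1.02 for the lowest dose, 2.56 for 50 mg/kg/day and 1.54 between these doses. Of the 9 genes, 1, Ltc4s, was then called at 50 mg/kg/day. With an offset of 0 in place of 50 and nothing else altered, chosen after seeing the data, these differences were 0.84, 2.14 and 1.295, and 1 of the 9 genes, again Ltc4s, was called at 50 mg/kg/day. The range over all settings was 0.18 to 1.02 and 0.90 to 2.56 for 25 and 50 mg/kg/day against control, 0.54 to 1.54 between them and 1.75 to 3.81 for the highest dose. Leaving out each array in turn gave Ltc4s differences of 0.26 to 0.42, 1.05 to 1.34, 0.70 to 0.99 and 2.06 to 2.38 in the same order, with adjusted limma p of 0.0737 to 0.593 at 50 mg/kg/day and 0.264 to 0.839 between 25 and 50 mg/kg/day. The number of the 9 genes called stayed at 0 to 0 in the first 3 comparisons and 1 to 1 at 75 mg/kg/day.

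None of the other 8 genes was called under any setting. Of the related pathway genes, 1, Ptgds, was called at 75 mg/kg/day with no background subtraction and with slide as a random block, and 0 to 1 when single arrays were left out (without control replicate 2, 25 mg/kg/day replicate 6 or 75 mg/kg/day replicate 18). Cell type markers called at 50 mg/kg/day went from 0 to 1, Marco, with slide as a fixed or a random block, and 0 to 1 with single arrays left out. At 75 mg/kg/day 1 (Marco, without Lyve1) was called with processed signals and with an offset of 0 and 0 with only the groups compared in the model, and 1 to 5 with single arrays left out (5 without 75 mg/kg/day replicate 19, 1 without replicate 17, 18 or 20). With median centring in place of loess the median of all probes lay at 0.11, -0.08, -0.20 and 0.10 in the 4 comparisons, and Ltc4s at 0.36, 0.90, 0.54 and 1.89. Quantile scaling of mean intensities leaves ratios as they are by construction. The groups share no replicate numbers. Slides, of which 3 hold an array of every group, were used as the block instead. As a fixed block they gave Ltc4s differences of 0.31, 1.15, 0.84 and 2.23 with no change of call among the 9 genes. The 1.15 could not differ from the main value, as both groups of that comparison lay on the same slides.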
